A study of Homo sapiens with 15 samples.

Results

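The genes described here are 31 genes of cholesterol synthesis and of the sterol regulatory element binding protein (SREBP) pathway, taken by symbol from the 60664 gene IDs of the count tables. They comprised 18 enzymes of sterol synthesis, 5 genes of SREBP control, the sterol carrier STARD4, 4 enzymes of fatty acid synthesis and 3 targets of the liver X receptors (LXR). RNA was sequenced from T47D cells, an oestrogen receptor positive human breast cancer line, in 5 groups of 3 libraries. TR01 cells (TR), resistant to 4-hydroxytamoxifen (4-OHT), an active metabolite of the antioestrogen tamoxifen, received for 120 h either 1 µM 4-OHT together with 5 µM erdafitinib (TR combination), 5 µM erdafitinib alone (TR erdafitinib), 1 µM 4-OHT alone (TR 4-OHT) or vehicle, 0.05% DMSO (TR vehicle). Erdafitinib is an inhibitor of fibroblast growth factor receptor kinases. Parental PAR01 cells received vehicle only (PAR vehicle).

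The lines differed in growth history as well as in drug response. TR stocks were kept in 2% charcoal-stripped serum with 1 µM 4-OHT, and PAR stocks in 5% serum, both with insulin. All cells then spent 24 h in their own growth medium and 48 h in 2% charcoal-stripped serum with insulin before the 120 h of treatment. TR01 is 1 resistant line, so resistance, growth history and the derivation of the line cannot be told apart in the TR to PAR comparison. The libraries are called biological replicates, with nothing said of whether they came from separate cultures. P-values measure the spread between these libraries, which may be technical.

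Cells make cholesterol from acetyl-CoA through mevalonate, squalene and lanosterol. When sterols in the endoplasmic reticulum are low, SCAP escorts the SREBP precursors, encoded by SREBF1 and SREBF2, to the Golgi, where proteases release the part that enters the nucleus. The nuclear factors raise transcription of sterol and fatty acid genes, and INSIG1 and INSIG2 hold SCAP back when sterols are plentiful. Oxysterols activate LXR, whose targets export cholesterol (ABCA1, ABCG1) or mark lipoprotein receptors for degradation (MYLIP).

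SREBPs bind sterol regulatory elements in promoters, commonly beside CCAAT boxes bound by NF-Y. RefSeq promoter windows of GRCh38.p14, from 250 bases before to 50 bases after a transcription start, were matched for 26 of the 31 genes. The letters CACNCCAC, searched on both strands, were present in windows of 7 of these 26 genes (26.9%), against 7.05% of the 27305 genes with a window. CCAAT on either strand was present in 20 of 26 (76.9%), against 39.7% of all genes. A match describes these letters only and no binding was measured.

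Windows of 3 genes that hold both motifs are printed because INSIG1 had the largest change between TR vehicle and PAR vehicle cells, SREBF2 encodes SREBP-2 itself and SCD had the highest level per kilobase: INSIG1 (chr7:155297628-155297927, + strand), SREBF2 (chr22:41832855-41833154, + strand) and SCD (chr10:100346983-100347282, + strand). Capitals mark CACNCCAC and CCAAT, or their reverse complements where the match is on the other strand.
INSIG1: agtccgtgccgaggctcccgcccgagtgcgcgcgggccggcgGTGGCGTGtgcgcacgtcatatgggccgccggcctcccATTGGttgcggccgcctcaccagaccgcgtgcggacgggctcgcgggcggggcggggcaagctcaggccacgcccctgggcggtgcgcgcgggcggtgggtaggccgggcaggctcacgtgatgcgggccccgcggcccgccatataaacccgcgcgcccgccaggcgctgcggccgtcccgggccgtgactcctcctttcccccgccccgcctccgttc
SREBF2: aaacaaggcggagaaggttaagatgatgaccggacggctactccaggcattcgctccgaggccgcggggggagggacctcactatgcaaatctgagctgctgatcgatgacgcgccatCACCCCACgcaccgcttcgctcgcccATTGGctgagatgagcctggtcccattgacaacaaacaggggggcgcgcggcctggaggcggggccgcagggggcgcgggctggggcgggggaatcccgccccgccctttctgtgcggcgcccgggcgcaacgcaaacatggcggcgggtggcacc
SCD: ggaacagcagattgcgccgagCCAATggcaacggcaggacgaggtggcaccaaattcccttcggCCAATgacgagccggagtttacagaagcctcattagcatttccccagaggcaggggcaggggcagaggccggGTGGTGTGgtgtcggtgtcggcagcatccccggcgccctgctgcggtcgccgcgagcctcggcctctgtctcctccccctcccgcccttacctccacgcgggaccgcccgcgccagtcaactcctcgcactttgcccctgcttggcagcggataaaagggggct

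For the other 4 genes with CACNCCAC, the 30 bases around the match are given on the strand that holds it, with the match in capitals. They lie at chr10:1048983-1049012 (+ strand) for IDI1, chr11:121292773-121292802 (- strand) for SC5D, chr17:37299973-37300002 (+ strand) for ACACA and chr9:104928365-104928394 (- strand) for ABCA1.
IDI1: cagcgccagtcCACGCCACatcgcccggcc
SC5D: ccgccgctccgCACGCCACtgctctgcaaa
ACACA: tagaaaggaaaCACGCCACtactagggaac
ABCA1: ccctccaccccCACCCCACccacctccccc

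Library totals lay between 6946684 (PAR vehicle 2) and 28717380 counts (TR erdafitinib 2), with a median of 22304029, and mitochondrial genes took 14.5% to 25.7% of counts. All 7 luminal markers (EPCAM, KRT8, KRT18, KRT19, GATA3, ESR1 and FOXA1) were present in every library, with summed levels between 1773 and 3643 CPM, counts scaled to an equal effective library size. Of the fibroblast markers 4 of 6, and of the hepatocyte markers 3 of 4, were under 1 CPM in every library, with COL1A2, APOA1 and APOB at 0. The fibroblast markers summed to 14.6 to 30.9 CPM in TR combination, 16.2 to 30.9 in TR erdafitinib, 19.6 to 34.8 in TR 4-OHT, 13.3 to 37.7 in TR vehicle and 11.9 to 28.2 in PAR vehicle libraries, nearly all from COL1A1. The hepatocyte markers summed to 20.3 to 37.6, 21.4 to 34.4, 18.5 to 23.9 and 10.2 to 28.0 CPM in the same order of TR groups, against 102 to 150.2 CPM in PAR vehicle libraries, nearly all from SERPINA1. Leukocyte and endothelial markers were under 1 CPM in every library, with CD3E at 0, and adipocyte markers summed to at most 1.403 CPM. The part of these genes in the results was not tested.

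Libraries that share a group differed most in GC-rich genes. Relative to its group mean, the quintile of highest GC content lay between -1.02 (TR vehicle 1) and 0.89 (PAR vehicle 3) on the log2 scale, and these libraries stand apart. Of the 31 pathway genes, 9 belong to that quintile. Within-group spread was widest for CYP51A1 (SD 1.49, log2 scale), FASN (1.37) and MVD (1.18), and narrow for FDFT1 (0.13) and INSIG1 (0.14), against a median of 0.38 over all genes tested. Without a correction for GC content, FASN, LSS and SREBF1 had wide errors (SE 0.98, 0.52 and 0.61 on the log2 scale for TR vehicle against PAR vehicle). In a fit that corrects for GC content and length their SE were 0.40, 0.19 and 0.15.

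**Figure D1:**
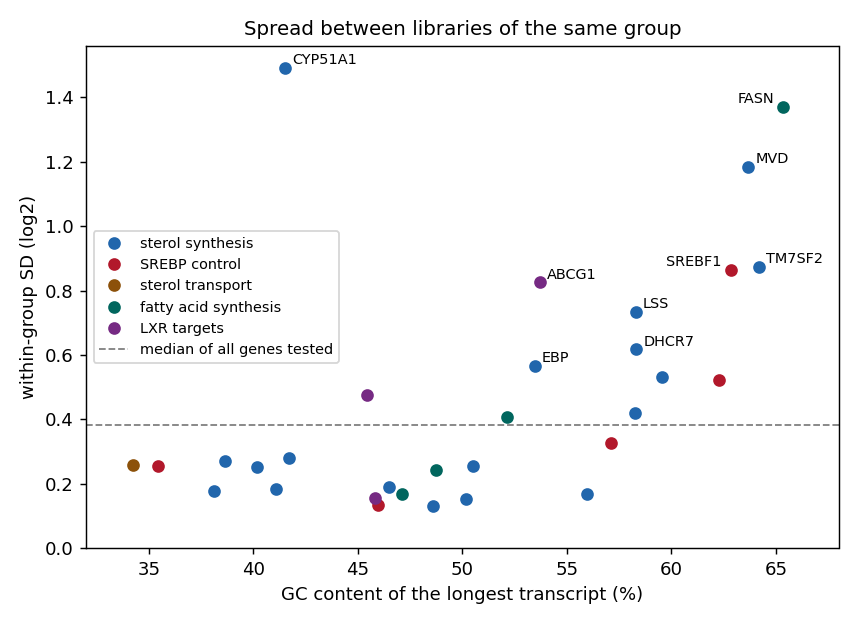
Spread between libraries of the same group (pooled SD of the log2 level over the 5 groups, vertical axis) against the GC content of the longest transcript in percent (horizontal axis), 1 point per pathway gene. FASN, MVD, TM7SF2, SREBF1, LSS and DHCR7, all in the quintile of highest GC content, sit above the dashed median of all genes (0.38). So do CYP51A1, ABCG1 and EBP and, closer to the line, PMVK, SCAP, ABCA1, MVK and ACLY.

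The first comparison set resistant against parental cells, both on vehicle. Genes of sterol synthesis, fatty acid synthesis and SREBP control were mostly higher in TR vehicle cells: of the 31 genes, 23 rose and 0 fell at an adjusted p under 0.05 (edgeR quasi-likelihood test, Benjamini-Hochberg over 16210 genes). Of all genes tested 35.9% passed, 19.9% as higher and 16% as lower. The median log2 fold change was 1.76 over the 31 genes, against 0.07 over all genes tested. All 31 passed the filter on low counts, but CYP51A1 and ABCA1 passed it through the TR libraries alone. Of the 29 others 22 rose and 0 fell. By role, 12 of 18 sterol enzymes, 4 of 5 SREBP control genes, STARD4, 4 of 4 fatty acid enzymes and 2 of 3 LXR targets rose. Median log2 fold changes were 1.504 for sterol enzymes, 0.84 for SREBP control, 2.33 for fatty acid enzymes and 1.10 for LXR targets. In 18 of the 31 genes all TR vehicle libraries lay above all PAR vehicle libraries, which 22.5% of all genes did, and in 1 gene (PMVK) all lay below, which 18.5% did. In bulk RNA, a change in the share of cells that express a gene and a change in RNA per cell cannot be told apart.

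**Figure D2:**
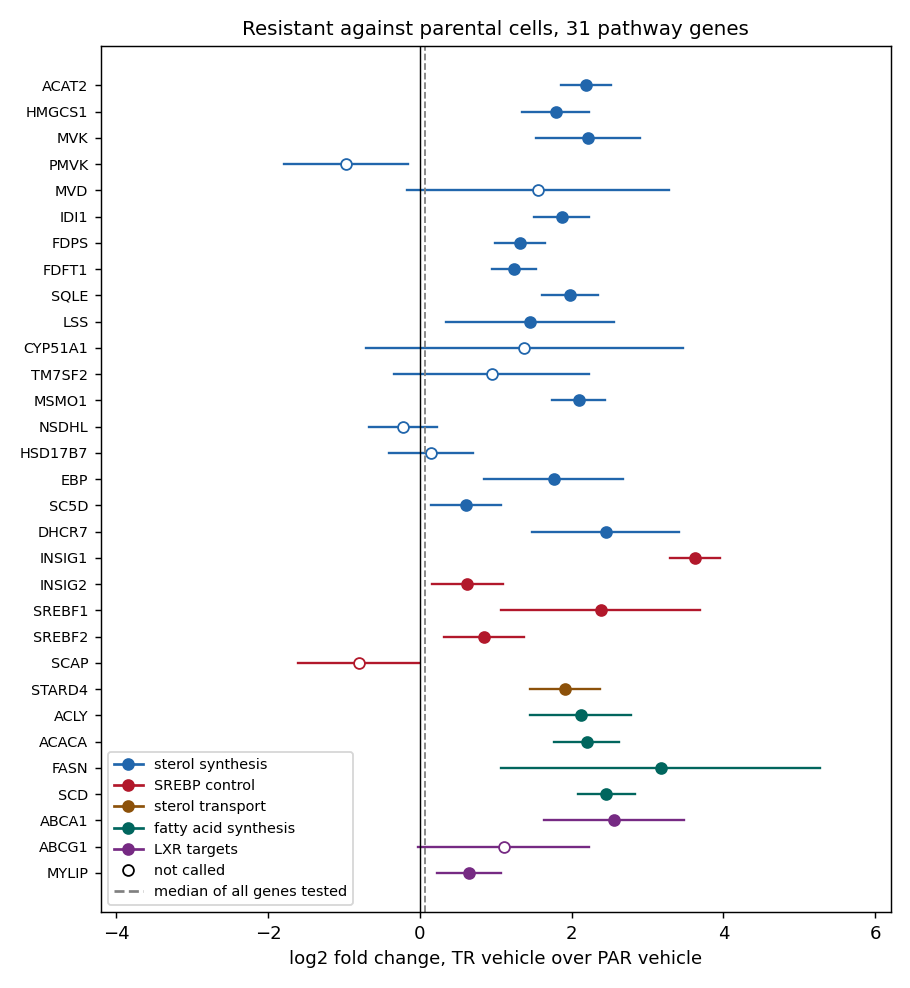
Log2 fold change of TR vehicle over PAR vehicle (horizontal axis) for the 31 pathway genes (rows), with 95% confidence intervals from the edgeR fit and n = 3 libraries a group. Filled points passed the test: 23 lie right of 0 and none left of it, and INSIG1 has the highest value (3.63).

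SREBP control genes were led by INSIG1, which encodes the sterol-dependent anchor of SCAP in the endoplasmic reticulum (ENSG00000186480, chromosome 7, 155297776 to 155310235, + strand, GRCh38). Its level was 118, 115 and 113 CPM in TR vehicle libraries, against 8.47, 10.8 and 8.99 CPM in PAR vehicle libraries. The groups did not overlap and every TR vehicle library was over 100 CPM. INSIG1 was 12.3-fold higher (log2 fold change 3.63, SE 0.15, edgeR adjusted p = 7.66e-10).

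INSIG2, the paralogue of INSIG1, had 36.1, 21.7 and 23.7 CPM in TR vehicle libraries, against 19.4, 18.1 and 15.4 CPM in PAR vehicle libraries. Its rise was 0.63 (SE 0.22, edgeR adjusted p = 0.0381) without overlap, and TR vehicle 1 was well above the other TR vehicle libraries. The call was lost without PAR vehicle 1 (0.71), PAR vehicle 2 (0.65), PAR vehicle 3 (0.56) or TR vehicle 1 (0.38). SREBF1, which encodes SREBP-1, had 26.4, 95.96 and 98.4 CPM in TR vehicle libraries, against 10.1, 4.92 and 26.02 CPM in PAR vehicle libraries. The lowest TR vehicle library and the highest PAR vehicle library nearly met without overlapping, and the change of 2.38 had an SE of 0.61 (edgeR adjusted p = 0.00729). Without PAR vehicle 3 the value for SREBF1 was 3.29.

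SREBF2, which encodes SREBP-2, had 91.3, 150.2 and 162 CPM in TR vehicle libraries, against 74.8, 57.2 and 92.5 CPM in PAR vehicle libraries. TR vehicle 1 lay just under PAR vehicle 3, so the groups overlapped, and the rise of 0.84 (SE 0.24, edgeR adjusted p = 0.0149) was lost in 6 of 18 alternative settings, among them without PAR vehicle 2 (0.69), TR vehicle 2 (0.77) or TR vehicle 3 (0.70). SCAP, the escort of SREBP, had 11.1, 33.2 and 28.9 CPM in TR vehicle libraries, against 37.3, 33.04 and 57.5 CPM in PAR vehicle libraries. Its log2 fold change of -0.81 (SE 0.37) did not pass (edgeR adjusted p = 0.106), and with a correction for GC content and length it was -1.51 (edgeR adjusted p = 5.79e-05).

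Among the early enzymes, ACAT2 condenses acetyl-CoA to acetoacetyl-CoA and had 70.3, 79.2 and 68.6 CPM in TR vehicle libraries, against 17.1, 14.1 and 16.4 CPM in PAR vehicle libraries. The groups were far apart (4.56-fold higher, log2 fold change 2.19, SE 0.16, edgeR adjusted p = 1.03e-07). MVK phosphorylates mevalonate and had 15.99, 31.2 and 32.3 CPM in TR vehicle libraries, against 5.87, 3.49 and 7.31 CPM in PAR vehicle libraries. TR vehicle 1 was the lowest of its group and still above every PAR vehicle library (2.22, SE 0.32, edgeR adjusted p = 9.93e-05).

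PMVK, the next kinase of the mevalonate pathway, went the other way in sign: 9.03, 25.4 and 21.2 CPM in TR vehicle libraries, against 27.8, 26.5 and 55.1 CPM in PAR vehicle libraries. No TR vehicle library reached the lowest PAR vehicle library, but the log2 fold change of -0.98 (SE 0.38) did not pass the test (edgeR adjusted p = 0.0592). It passed as a decrease in 8 of 18 alternative settings, the correction for GC content and length (-1.37, edgeR adjusted p = 1.13e-05) and the settings without PAR vehicle 2 or TR vehicle 2 among them, and over all 18 its value lay between -1.37 and -0.19.

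HMGCS1, IDI1, FDPS and FDFT1, which lead from acetoacetyl-CoA through the isoprenyl diphosphates to squalene, rose by log2 fold changes of 1.79, 1.87, 1.32 and 1.24 (SE between 0.13 and 0.21, largest edgeR adjusted p = 1.40e-05). In none of these 4 genes did the groups overlap, and all 4 calls held in each of the 18 alternative settings. IDI1, FDPS and HSD17B7 have 3, 8 and 2 pseudogenes by symbol, and reads that map equally well to a copy may have been left out or split. MVD, which decarboxylates mevalonate diphosphate, averaged 63.7 ± 42.3 CPM in TR vehicle cells and 21.1 ± 23.9 CPM in PAR vehicle cells (SD, n = 3 each). TR vehicle 1 and PAR vehicle 3 crossed over between the groups, and the difference did not pass (1.56, SE 0.80, edgeR adjusted p = 0.15). With the correction for GC content and length it passed as higher (1.08, SE 0.29, edgeR adjusted p = 0.00511).

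After squalene, SQLE (squalene epoxidase) had 252, 178 and 192 CPM in TR vehicle libraries, against 53.03, 54.01 and 50.8 CPM in PAR vehicle libraries. The PAR vehicle values lay close together, and the rise of 1.98 had an SE of 0.17 (edgeR adjusted p = 7.35e-07). MSMO1, which removes methyl groups from the sterol ring, had 199, 144 and 157 CPM in TR vehicle libraries, against 35.4, 40.98 and 41.1 CPM in PAR vehicle libraries. It was 4.26-fold higher (2.09, SE 0.16, edgeR adjusted p = 2.73e-07) without overlap. DHCR7, a sterol reductase late in the pathway, had 72.4, 198 and 217 CPM in TR vehicle libraries, against 22.9, 22.6 and 43.2 CPM in PAR vehicle libraries. Without a correction for GC content and length its rise was the highest among the sterol enzymes (2.45, SE 0.45, edgeR adjusted p = 0.000761). TR vehicle 1 was well under the other TR vehicle libraries. With the correction the DHCR7 value was 1.94 (SE 0.15, edgeR adjusted p = 4.5e-08), below ACAT2 (2.11) and MSMO1 (2.09).

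Smaller or less certain rises were seen for LSS (1.45, SE 0.52, edgeR adjusted p = 0.0406), which closes the sterol rings, and SC5D (0.61, SE 0.21, edgeR adjusted p = 0.0386), a late desaturase. The groups overlapped in each gene. With the correction LSS had a log2 fold change of 0.95 (edgeR adjusted p = 0.000537). The LSS call was lost in 7 of 18 alternative settings, among them without PAR vehicle 1 (1.31), PAR vehicle 2 (1.18), TR vehicle 2 (1.31) or TR vehicle 3 (1.14). The SC5D call was lost in 8, among them without PAR vehicle 1 (0.57), PAR vehicle 3 (0.49) or TR vehicle 1 (0.35). EBP, a sterol isomerase, rose by 1.76 (SE 0.43, edgeR adjusted p = 0.00504) with overlapping groups, and 36.4% of its exon bases lie in another gene on the same strand, where featureCounts by default assigns reads to neither gene.

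CYP51A1, the lanosterol demethylase, shares 80.6% of its exon bases with 2 other genes, and its counts of 0.722, 3.52 and 4.69 CPM in TR vehicle libraries, against 0.336, 0 and 2.58 CPM in PAR vehicle libraries, cover the remainder only. It did not pass (1.38, SE 0.98, edgeR adjusted p = 0.298). TM7SF2, a sterol reductase, averaged 65.2 ± 38.6 CPM in TR vehicle cells and 33.4 ± 26.1 CPM in PAR vehicle cells (SD, n = 3 each) and did not pass (0.95, edgeR adjusted p = 0.243), but passed as higher with the correction (0.40, SE 0.11, edgeR adjusted p = 0.00613). NSDHL (-0.22, 95% interval -0.67 to 0.22) and HSD17B7 (0.15, -0.40 to 0.70), which work beside MSMO1 in removing methyl groups, did not pass either. The intervals of NSDHL and HSD17B7 end below the lower bounds of MSMO1 (1.74 to 2.44) and SQLE (1.62 to 2.34).

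STARD4, a carrier that moves cholesterol between membranes, had 117, 63.4 and 74.9 CPM in TR vehicle libraries, against 24.5, 24.6 and 18.99 CPM in PAR vehicle libraries. The groups did not overlap, although TR vehicle 1 stood above its group (1.91, SE 0.21, edgeR adjusted p = 9.62e-06).

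All 4 fatty acid enzymes rose. ACLY, which makes cytosolic acetyl-CoA from citrate, had 410.2, 708 and 872 CPM in TR vehicle libraries, against 126, 141 and 191 CPM in PAR vehicle libraries, a log2 fold change of 2.12 (SE 0.31, edgeR adjusted p = 0.000109). ACACA, which carboxylates acetyl-CoA to malonyl-CoA, had 337, 239 and 263 CPM in TR vehicle libraries, against 69.4, 71.00 and 42.97 CPM in PAR vehicle libraries (2.20, SE 0.20, edgeR adjusted p = 1.36e-06). In neither gene did the groups overlap.

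SCD, the stearoyl-CoA desaturase (ENSG00000099194, chromosome 10, 100347233 to 100364826, + strand, GRCh38), had 3636, 2646 and 3001 CPM in TR vehicle libraries, against 612, 588 and 489.6 CPM in PAR vehicle libraries. It was 5.49-fold higher (2.46, SE 0.18, edgeR adjusted p = 1.13e-07). FASN, the fatty acid synthase, had 36.5, 308 and 413 CPM in TR vehicle libraries, against 12.5, 9.69 and 59.9 CPM in PAR vehicle libraries. TR vehicle 1 lay under PAR vehicle 3, and these libraries are the extremes of the GC ranking given above. With the correction for GC content and length FASN had a log2 fold change of 2.35 (SE 0.40, edgeR adjusted p = 0.000151). The uncorrected FASN value of 3.17 (SE 0.98, edgeR adjusted p = 0.0207) was 3.68 without TR vehicle 1 and 4.53 without PAR vehicle 3, and the call was lost without PAR vehicle 2 (2.79), PAR vehicle 1 (2.82) or TR vehicle 3 (2.63).

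Among LXR targets, ABCA1, a cholesterol exporter, had 5.88, 3.85 and 4.75 CPM in TR vehicle libraries, against 1.17, 1.11 and 0.364 CPM in PAR vehicle libraries. The groups did not overlap (2.56, SE 0.43, edgeR adjusted p = 0.000347), but ABCA1 was tested only because its TR counts passed the filter, so its call is no support for a rise of the LXR targets. Without it 1 of 2 LXR targets rose. ABCG1, which passes cholesterol to high density lipoprotein, had 8.00, 14.8 and 16.8 CPM in TR vehicle libraries, against 5.54, 1.27 and 10.9 CPM in PAR vehicle libraries. The groups overlapped and the difference did not pass (1.10, SE 0.53, edgeR adjusted p = 0.119). MYLIP, a ubiquitin ligase for lipoprotein receptors, had 12.5, 9.99 and 12.5 CPM in TR vehicle libraries, against 8.22, 7.15 and 6.88 CPM in PAR vehicle libraries, a rise of 0.65 without overlap (SE 0.20, edgeR adjusted p = 0.0182). The MYLIP call was lost without TR vehicle 3 (0.62).

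Per kilobase of exon, SCD had the highest level of the 31 genes in TR vehicle cells, at 590.0 ± 95.7 CPM per kb, against 107 ± 12.4 CPM per kb in PAR vehicle cells (SD, n = 3 each). Among sterol enzymes in TR vehicle cells, IDI1 (103 ± 12.3 CPM per kb) and HMGCS1 (78.5 ± 24.1) were the most abundant, and their spreads meet. FDPS (58.7 ± 7.56 CPM per kb), MSMO1 (58.5 ± 10.1), SQLE (48.2 ± 9.19) and FDFT1 (46.3 ± 2.87) followed, and the spreads of neighbours in this order overlapped. In the same cells MVK, at 4.09 ± 1.41 CPM per kb, and HSD17B7, at 1.66 ± 0.209, were the lowest of the sterol enzymes apart from CYP51A1, whose length includes the shared bases.

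**Figure D3:**
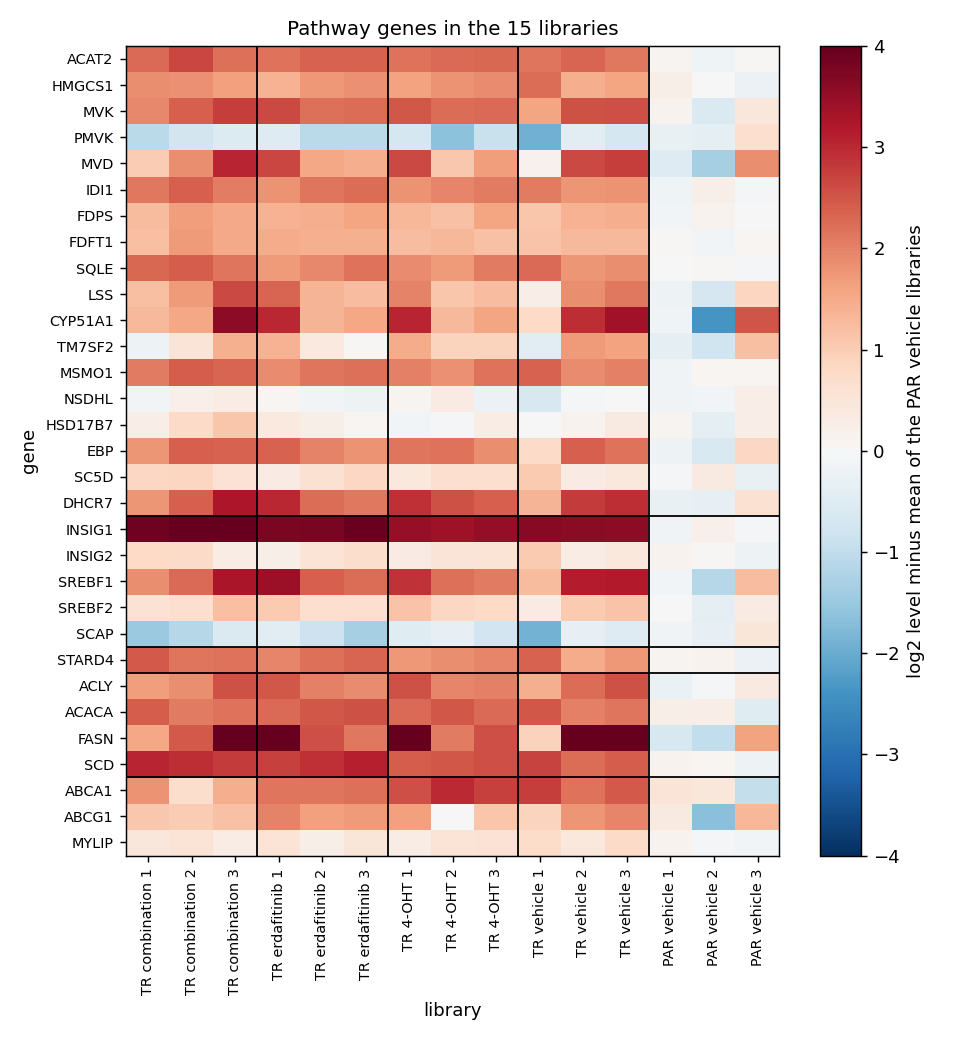
Level of the 31 pathway genes (rows) in each of the 15 libraries (columns), as the log2 level minus the mean of the PAR vehicle libraries, with colours capped at the ends of the scale. Horizontal lines separate the gene roles and vertical lines the groups, and the INSIG1 row is dark red in all 12 TR libraries.

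Library by library, the median log2 level of the 4 fatty acid enzymes over their PAR vehicle mean was 2.05, 2.27 and 2.68 in TR combination, 2.61, 2.53 and 2.33 in TR erdafitinib, 2.49, 2.27 and 2.43 in TR 4-OHT and 1.97, 2.24 and 2.48 in TR vehicle libraries. For the 18 sterol enzymes it was 1.29, 1.77 and 2.09 in TR combination, 1.74, 1.497 and 1.57 in TR erdafitinib, 1.84, 1.31 and 1.62 in TR 4-OHT and 1.07, 1.76 and 1.83 in TR vehicle libraries. In each of the 12 TR libraries the fatty acid median was above the sterol median. The 3 LXR targets gave 1.08, 0.72 and 1.16 in TR combination, 1.98, 1.64 and 1.71 in TR erdafitinib, 1.64, 0.54 and 1.10 in TR 4-OHT and 0.88, 1.76 and 1.95 in TR vehicle libraries. Their median was lower in every TR combination library than in every TR erdafitinib library. A median of 3 genes is the value of 1 gene, which in these libraries was ABCG1 or ABCA1. MYLIP overlapped between these groups (0.29 to 0.55 in TR combination, 0.22 to 0.54 in TR erdafitinib), and 0 of the 3 genes passed between them.

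The second comparison set resistant cells on both drugs against the same PAR vehicle libraries, so it shares its controls with the first and is not independent of it. In TR combination cells 22 of the 31 genes rose and 1 fell, where 34.6% of all genes tested passed, 19.4% as higher and 15.2% as lower. The median log2 fold change was 1.77, against 0.03 over all genes. In 22 of the 31 genes all TR combination libraries lay above all PAR vehicle libraries (24.5% of all genes), and in 2, PMVK and SCAP, below (18.8%). By role, 13 of 18 sterol enzymes, 4 of 5 SREBP control genes, STARD4, 3 of 4 fatty acid enzymes and 1 of 3 LXR targets rose. Without CYP51A1 and ABCA1, tested through the TR libraries alone, 21 of 29 genes rose and 1 fell, and 0 of 2 LXR targets rose. INSIG1 had 141, 187 and 162 CPM in TR combination libraries, all above the 8.47, 10.8 and 8.99 CPM of PAR vehicle libraries (4.12, SE 0.16, edgeR adjusted p = 3.62e-10). SCD was 7.67-fold higher (2.94, SE 0.18), SQLE 4.86-fold (2.28, SE 0.17) and STARD4 4.81-fold (2.27, SE 0.22).

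The gene that fell was SCAP, with 14.8, 18.6 and 27.8 CPM in TR combination libraries, against 37.3, 33.04 and 57.5 CPM in PAR vehicle libraries (-1.07, SE 0.37, edgeR adjusted p = 0.038). The groups did not overlap, and the call was lost in 5 of 18 alternative settings, among them without PAR vehicle 1 (-1.15), PAR vehicle 3 (-0.77), TR combination 1 (-0.87) or TR combination 2 (-0.99). HSD17B7 passed in TR combination cells (0.73, SE 0.26, edgeR adjusted p = 0.0416), a call that held in 6 of 18 alternative settings and was lost without PAR vehicle 1 (0.76), PAR vehicle 2 (0.58), TR combination 2 (0.73) or TR combination 3 (0.50). INSIG2 (0.63, edgeR adjusted p = 0.039) lost its call without PAR vehicle 1 (0.71), PAR vehicle 2 (0.65), PAR vehicle 3 (0.55), TR combination 1 (0.55) or TR combination 2 (0.57), LSS without PAR vehicle 1 (1.67), PAR vehicle 2 (1.55) or TR combination 3 (1.299), SC5D without PAR vehicle 3 (0.61), SREBF1 without TR combination 3 (1.70) and SREBF2 without PAR vehicle 2 (0.67) or TR combination 3 (0.59). FASN did not pass against PAR vehicle cells (2.53, SE 0.95, edgeR adjusted p = 0.0533), but passed as higher with the correction for GC content and length (2.15, SE 0.40, edgeR adjusted p = 0.00033). With the correction MVD also passed as higher (1.43, edgeR adjusted p = 0.000686) and PMVK as lower (-0.97, edgeR adjusted p = 0.000287). HSD17B7 did not pass with it (0.61, edgeR adjusted p = 0.101). Over all genes 8209 passed in this corrected comparison, against 5616 without the correction, and of the pathway genes 23 rose and 2 fell. ABCA1, tested through its TR counts alone, had a log2 fold change of 1.44 (SE 0.43, edgeR adjusted p = 0.0172), beside 2.56 in TR vehicle cells, and the call was lost without PAR vehicle 3 (0.97) or TR combination 1 (1.18). MYLIP did not pass (0.43, edgeR adjusted p = 0.104).

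Within resistant cells INSIG1 was the single gene of the 31 to pass in any of the comparisons between drugs, in 2 of them. For 4-OHT against vehicle 0 of the 31 genes passed, and 0 of 16210 genes in all (0%, edgeR). Unadjusted p-values under 0.05 were found for 0 of the 31 and 127 of all genes, and with DESeq2 no gene passed. The 31 log2 fold changes lay between -0.54 and 0.30, with a median of -0.03. INSIG1 had 106, 98.3 and 107 CPM in TR 4-OHT libraries, all below the 118, 115 and 113 CPM of TR vehicle libraries, yet the difference of -0.15 (95% interval -0.44 to 0.13) did not pass (edgeR adjusted p = 1). It was the 1 gene of the 31 with all TR 4-OHT libraries lower (1.94% of all genes), and 0 had them all higher (1.7%). The interval was -0.43 to 0.26 for SQLE and -0.32 to 0.39 for SCD, which bounds any change of these genes under 4-OHT well below their TR to PAR differences. For FASN it was wide, -2.46 to 1.39.

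For erdafitinib alone against vehicle 0 of the 31 genes passed as well, where 0.0925% of all genes passed (0.0432% as higher, 0.0494% as lower). Unadjusted p-values under 0.05 were found for 1 of the 31, SCD, and 700 of all genes, and with DESeq2 0 of the 31 passed. SCD had 3701, 4261 and 4861 CPM in TR erdafitinib libraries, against 3636, 2646 and 3001 CPM in TR vehicle libraries. Each TR erdafitinib library was above each TR vehicle library (0.47, SE 0.17, edgeR adjusted p = 0.777). INSIG1 had 129, 131 and 147 CPM in TR erdafitinib libraries, all above the 118, 115 and 113 CPM of TR vehicle libraries (0.23, SE 0.13, edgeR adjusted p = 1). With FDFT1 these were the 3 genes of the 31 whose TR erdafitinib libraries were all higher (6.01% of all genes), and 0 had them all lower (5.56%).

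With erdafitinib added to 4-OHT, 1 of the 31 genes passed as higher and 0 as lower, where 0.642% of all genes passed, 0.296% as higher and 0.345% as lower. The gene was INSIG1, with 141, 187 and 162 CPM in TR combination libraries, against 106, 98.3 and 107 CPM in TR 4-OHT libraries. Every combination library was above every 4-OHT library (0.65, SE 0.13, edgeR adjusted p = 0.0427). The adjusted p was close to the threshold and the call held in 5 of 18 alternative settings, over all of which the log2 fold change stayed between 0.55 and 0.75. It was lost without TR 4-OHT 1 (0.67), TR 4-OHT 2 (0.62), TR 4-OHT 3 (0.68), TR combination 2 (0.55) or TR combination 3 (0.64).

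Several other genes were set apart by library in the same comparison without passing. SCD had 4648, 4384 and 3923 CPM in TR combination libraries, against 3036, 3112 and 3364 CPM in TR 4-OHT libraries (0.45, SE 0.17, edgeR adjusted p = 0.401). SQLE had 257, 279 and 230.1 CPM in TR combination libraries, against 193, 173 and 220.2 CPM in TR 4-OHT libraries (0.39, SE 0.16, edgeR adjusted p = 0.498). In both genes, as in STARD4, each combination library was above each 4-OHT library. ABCA1 had 3.00, 1.36 and 2.31 CPM in TR combination libraries, against 5.16, 6.90 and 5.81 CPM in TR 4-OHT libraries. The exporter was lower in each combination library (-1.41, SE 0.38, edgeR adjusted p = 0.159), and it passed with the correction for GC content and length (-1.42, edgeR adjusted p = 0.0143). In 4 of the 31 genes, INSIG1 among them, the combination libraries lay above all 4-OHT libraries, as did 8.29% of all genes. In 1 gene they lay below, as did 7.43%. These counts are near the shares of all genes.

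**Figure D4:**
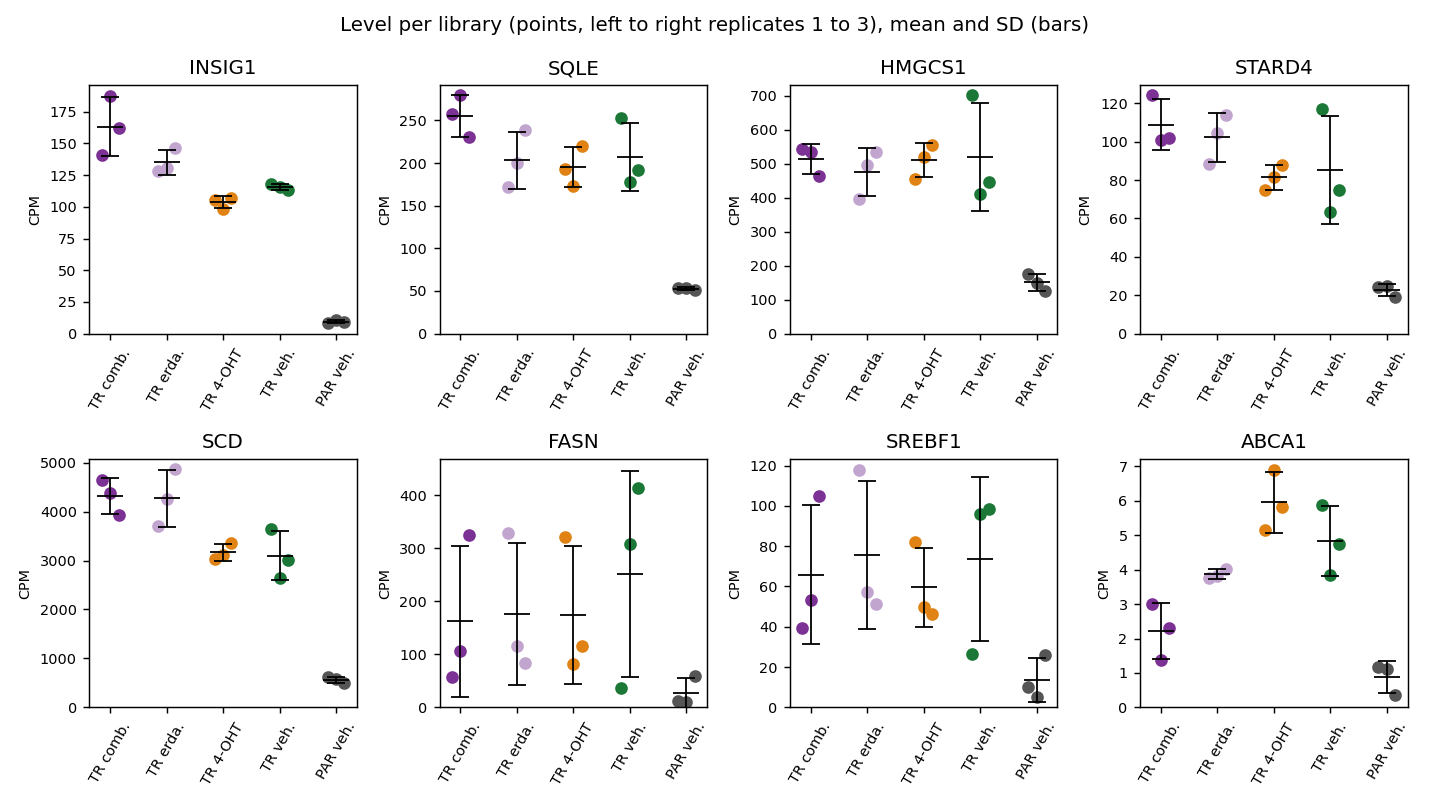
Level in CPM (vertical axes, from 0) of 8 pathway genes in each library, in 5 groups with bars for the mean and SD of 3 libraries. INSIG1, SQLE, HMGCS1, STARD4 and SCD are higher in all 12 TR libraries than in any PAR vehicle library. For FASN, TR vehicle 1 and TR combination 1 lie below PAR vehicle 3, and the other TR libraries lie above it.

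Averaged over both backgrounds, the effect of erdafitinib (the mean of TR erdafitinib over TR vehicle and TR combination over TR 4-OHT) passed for 1 of the 31 genes, again INSIG1 (0.44, SE 0.09, edgeR adjusted p = 0.0304), where 1.71% of all genes passed, 0.777% as higher and 0.938% as lower. All 6 erdafitinib libraries, at 141, 187 and 162 CPM with 4-OHT and 129, 131 and 147 CPM without, were above the 6 libraries that lacked it. Of the 31 genes 2, INSIG1 and SCD, were set apart in this way, and the share of all genes was not computed. The INSIG1 call held in 9 of 24 alternative settings, and over all 24 the log2 fold change stayed between 0.36 and 0.49. The call was lost without TR vehicle 2 (0.44), TR vehicle 3 (0.43), TR 4-OHT 1 (0.45), TR 4-OHT 2 (0.42), TR 4-OHT 3 (0.45), TR erdafitinib 1 (0.45), TR erdafitinib 2 (0.45), TR erdafitinib 3 (0.41), TR combination 2 (0.39) or TR combination 3 (0.43). SCD, with 4318 ± 367 CPM in TR combination and 4274 ± 580.1 CPM in TR erdafitinib cells, against 3170.4 ± 172 CPM in TR 4-OHT and 3094 ± 502 CPM in TR vehicle cells (SD, n = 3 each), came next (0.46, SE 0.12, edgeR adjusted p = 0.0762). STARD4 (0.34, SE 0.14, edgeR adjusted p = 0.362) and ABCA1 (-0.86, SE 0.27, edgeR adjusted p = 0.153) did not pass.

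The correction for GC content and length narrowed the errors and brought the pooled count to 5 of 31. Without the correction 278 genes passed in all, and with it 1014 did, so the count rose over all genes as well. INSIG1 (0.37, SE 0.08), SCD (0.42, SE 0.08), LSS (0.46, SE 0.13) and STARD4 (0.24, SE 0.06) then rose, and ABCA1 fell (-0.88, SE 0.20). Their adjusted p-values in that edgeR fit were 0.00748, 0.00631, 0.0439, 0.0296 and 0.0144. Without the library of each group farthest from its mean in high-GC genes, a setting chosen after seeing the data, 13 of the 31 passed (4 rose and 9 fell). In the same setting 3537 genes passed in all, against 278 as reported. That setting leaves TR vehicle libraries with high-GC genes at 0.51 above the mean of all 3 and TR erdafitinib libraries at -0.17 and -0.40, and the part of this in the 13 calls was not tested.

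**Figure D5:**
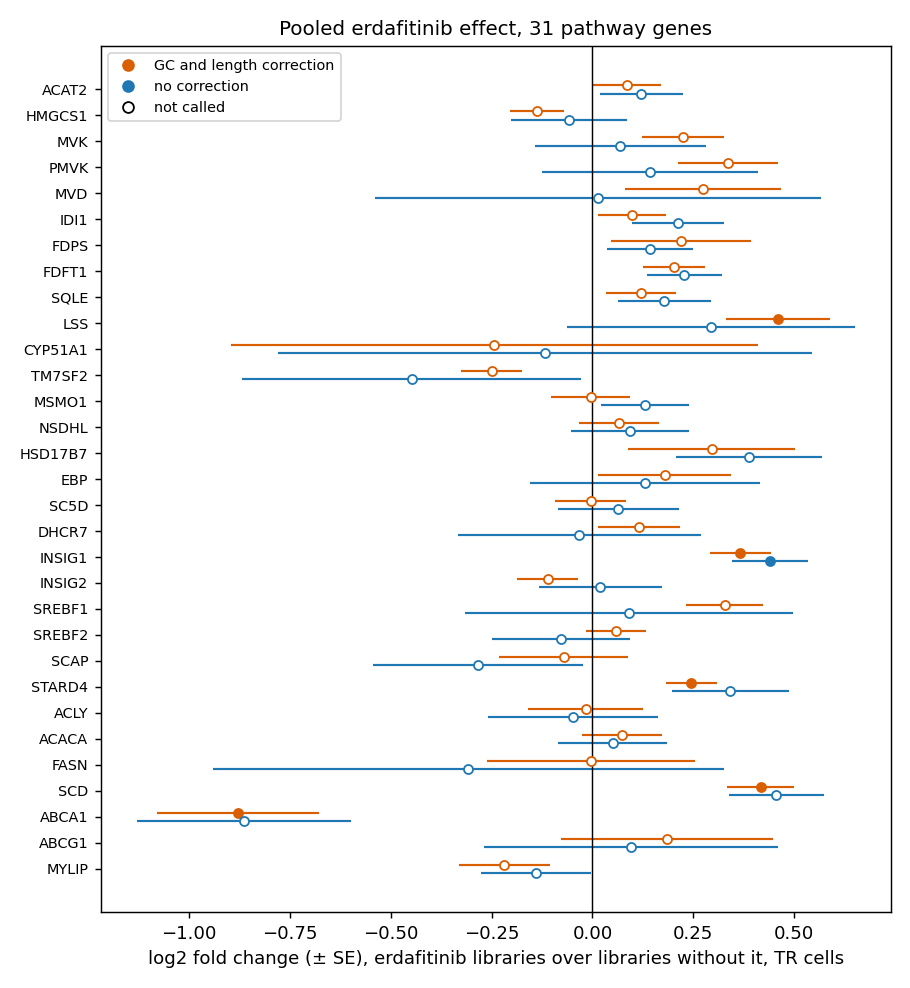
Pooled log2 effect of erdafitinib in TR cells (horizontal axis, with SE) for the 31 pathway genes (rows), with the GC and length correction (orange) and without it (blue). Filled points passed the test: INSIG1 in both fits, and LSS, STARD4, SCD and ABCA1 with the correction alone.

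The interaction of erdafitinib and 4-OHT passed for 0 of the 31 genes and 0 of all genes (0%, edgeR), and with DESeq2 for 0 of the 31. Unadjusted p-values under 0.05 were found for 134 genes, of which 1, INSIG1 (0.43, SE 0.19), was among the 31. For 4-OHT added to erdafitinib 0 of the 31 genes and 0 of all genes passed (0%, edgeR), with 0 of the 31 and 0.642% of all genes at an unadjusted p under 0.05. With DESeq2 0 of the 31 passed. In 2 genes, ABCA1 and ABCG1, all TR combination libraries were below all TR erdafitinib libraries (2.39% of all genes), and in 0 above (2.97%). ABCA1 had 3.00, 1.36 and 2.31 CPM in TR combination libraries, all below the 3.77, 3.81 and 4.03 CPM of TR erdafitinib libraries, and did not pass (-0.80, SE 0.38, edgeR adjusted p = 1).

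Other sterol enzymes did not pass between TR groups. ACAT2 had 75.99, 101 and 73.4 CPM in TR combination, 71.1, 80.9 and 81.2 CPM in TR erdafitinib and 71.6, 77.1 and 77.9 CPM in TR 4-OHT libraries. MSMO1 had 166, 208 and 199 CPM in TR combination, 147, 171 and 180.3 CPM in TR erdafitinib and 157, 140.3 and 178 CPM in TR 4-OHT libraries. Both genes were above their PAR vehicle libraries in each treated library, and each treated group overlapped TR vehicle libraries. MVK had 20.4, 28.1 and 37.04 CPM in TR combination, 33.4, 24.6 and 25.5 CPM in TR erdafitinib and 30.3, 25.5 and 25.7 CPM in TR 4-OHT libraries. DHCR7 had 96.6, 149 and 264 CPM in TR combination, 229, 132 and 121 CPM in TR erdafitinib and 214, 166 and 147 CPM in TR 4-OHT libraries. TR combination 3 and TR erdafitinib 1 were the highest libraries of their groups in both genes, and each also had the highest level of high-GC genes within its group (0.61 and 0.57 above the group mean, log2 scale).

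Of the regulators, SREBF1 had 39.6, 53.3 and 105 CPM in TR combination, 118, 57.3 and 51.4 CPM in TR erdafitinib and 82.2, 50.04 and 46.3 CPM in TR 4-OHT libraries. SREBF2 had 109.5, 117 and 171 CPM in TR combination, 153, 117 and 116 CPM in TR erdafitinib and 163, 131 and 129 CPM in TR 4-OHT libraries. INSIG2 had 30.4, 29.6 and 21.5 CPM in TR combination, 20.6, 25.7 and 28.6 CPM in TR erdafitinib and 22.3, 25.3 and 25.4 CPM in TR 4-OHT libraries. SREBF1 was highest, in each treated group, in the library with the highest level of GC-rich genes, and the TR groups overlapped for all 3 regulators. SCAP had 30.8, 23.1 and 16.5 CPM in TR erdafitinib and 29.7, 33.2 and 24.4 CPM in TR 4-OHT libraries. STARD4 had 124, 101 and 102 CPM in TR combination, 88.1, 105 and 114 CPM in TR erdafitinib and 74.8, 81.5 and 87.9 CPM in TR 4-OHT libraries. All treated libraries were above PAR vehicle for STARD4, while SCAP treated libraries lay below the lowest PAR vehicle library except TR 4-OHT 2.

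For fatty acid synthesis, ACLY had 480.0, 547 and 878 CPM in TR combination, 842, 605 and 559 CPM in TR erdafitinib and 874, 576 and 603 CPM in TR 4-OHT libraries. ACACA had 319, 255 and 268 CPM in TR combination, 287, 334 and 348 CPM in TR erdafitinib and 288, 331 and 288 CPM in TR 4-OHT libraries. FASN had 56.6, 106 and 325 CPM in TR combination, 329.8, 115 and 84.4 CPM in TR erdafitinib and 322, 82.1 and 116 CPM in TR 4-OHT libraries. One library in each treated group held FASN well above the others, and it was the library with the highest level of GC-rich genes. With the correction for GC content and length the SE of the pooled erdafitinib effect on FASN was 0.26, against 0.63 without it, and neither fit passed. ABCG1 had 9.18, 8.77 and 9.68 CPM in TR combination, 17.2, 13.6 and 14.3 CPM in TR erdafitinib and 13.6, 4.33 and 9.30 CPM in TR 4-OHT libraries. MYLIP had 10.1, 10.9 and 9.08 CPM in TR combination, 10.8, 8.65 and 10.3 CPM in TR erdafitinib and 9.15, 10.8 and 11.2 CPM in TR 4-OHT libraries. Neither LXR target passed a test between TR groups, and all 9 treated MYLIP libraries were above PAR vehicle libraries.

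Other genes that SREBPs are known to act on were listed apart from the 31. The list was chosen with earlier results of these data known, so its counts are no independent support. In TR vehicle against PAR vehicle cells 10 of 15 tested rose and 0 fell, where 19.9% of all genes rose and 16% fell, and the median log2 fold change was 0.75 (0.07 over all genes). In 9 genes all TR vehicle libraries lay above all PAR vehicle libraries (22.5% of all genes), and in 1, ELOVL5, below (18.5%). In TR combination cells 8 of 15 rose and 0 fell, where 19.4% of all genes rose and 15.2% fell, with a median of 0.97 (0.03 over all genes). All TR combination libraries lay above all PAR vehicle libraries in 9 genes (24.5% of all genes) and below in 2 (18.8%). The smallest p-values belonged to AACS, which activates acetoacetate (78.3 CPM in TR vehicle and 28.3 CPM in PAR vehicle cells, log2 fold change 1.47, SE 0.17), and RDH11, a retinol dehydrogenase (246 CPM in TR vehicle and 85.1 CPM in PAR vehicle cells, 1.54, SE 0.18). LPIN1, a phosphatidate phosphatase (1.39, SE 0.19), and ELOVL6, a fatty acid elongase (1.97, SE 0.27), came next. In the pooled effect of erdafitinib, FADS1, a fatty acid desaturase, rose by 0.44 (SE 0.09, edgeR adjusted p = 0.0178), and it was the single gene of the 15 to pass, where 1.71% of all genes passed. Whether the FADS1 call holds in the alternative settings was not examined.

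Of 8 tested genes that process or degrade the SREBP machinery, 1 rose and 2 fell in TR vehicle cells against PAR vehicle cells, with a median log2 fold change of -0.18 (0.07 over all genes). These counts are near the 19.9% of all genes that rose and the 16% that fell. MBTPS1, the first protease to cut SREBPs, had a log2 fold change of -0.45 (SE 0.11, edgeR adjusted p = 0.0048), with 243 CPM in TR vehicle and 332 CPM in PAR vehicle cells. SYVN1, a ubiquitin ligase, fell to 50.5 CPM in TR vehicle cells, against 132 CPM in PAR vehicle cells (-1.39, SE 0.34). Of 6 other genes of the LXR axis that were tested, LPCAT3, a phospholipid acyltransferase, rose (1.27, SE 0.18, edgeR adjusted p = 8.28e-05) and PLIN2, a lipid droplet coat protein, fell (-1.15, SE 0.26, edgeR adjusted p = 0.00298). The median over these 6 genes was -0.89 (0.07 over all genes), where 19.9% of all genes rose and 16% fell. In 4 of the 6 all TR vehicle libraries lay below all PAR vehicle libraries (18.5% of all genes), and in 1 above (22.5%). In TR combination cells 1 rose and 2 fell, where 19.4% of all genes rose and 15.2% fell.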

How the data were processed

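The submitters' processing notes name HISAT2 2.1.0 as a tool and GRCh38 as the build of the paired-end reads. The deposited files hold raw counts per gene from featureCounts, counted on the reverse strand with Ensembl 104 annotation, per the file headers. The headers name featureCounts 2.0.1 and the processing notes 1.4.6-p1. Symbols came from a gene name table (60463 of 60664 IDs), GC content from the longest GENCODE transcript (16033 of 16210 genes tested). Counts of 15 libraries were fitted together in edgeR 4.0.16 (R 4.3.3; filterByExpr, TMM, 1 mean per group, quasi-likelihood test), with Benjamini-Hochberg adjustment over 16210 genes and calls at an adjusted p under 0.05. The common biological coefficient of variation was 30.8%, with 10 residual degrees of freedom. CPM use TMM-scaled library sizes, and 3 counts equal 0.105 to 0.432 CPM. No pair of libraries of 1 group agreed within sampling noise (chi-square per gene 8.05 to 164). The 31 genes and the other lists were chosen with earlier results of these data known. Values in every library are given for the 5 called sterol enzymes with the largest changes, for every other role, and for genes called within TR. Other lists name up to 4 called genes a direction by smallest p. A called gene of the SREBP processing list is not reported here by name. Alternatives were scaling by DESeq2's method, DESeq2 1.42.0, other count filters, only the groups compared, a replicate block, a spline correction for GC content and length, thinning to the lowest total, a test against a 1.5-fold change, and leaving out libraries. The scripts were tested on simulated data.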

Additional observations from a re-analysis of the deposited data

How the results depend on the processing

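Counts of the 31 genes called in TR vehicle against PAR vehicle (16 to 27) and in TR combination against PAR vehicle (17 to 26) stayed within 1.5 times their values in all 18 alternatives each, and no called gene changed sign. Of the 23 genes called in each, 16 and 15 were called in every alternative. With 1 library left out the counts were 19 to 25 and 19 to 22. For TR combination against TR 4-OHT the count of 1 became 0 with DESeq2's scaling in edgeR, no count filter, only the groups compared, the replicate block, thinned counts, the 1.5-fold test, or without the 2 shallowest libraries, and 2 with DESeq2, the GC and length correction, or this with the block; it was 0 to 1 with 1 library left out. The pooled erdafitinib count of 1 became 0 with no filter, the block, thinning, the 1.5-fold test or without the shallowest libraries, 2 with only the groups compared, 3 with DESeq2, and 5 with the GC and length correction, with or without the block; it was 0 to 3 with 1 library left out. Without the library of each group farthest in high-GC genes, chosen after seeing the data, counts were 5 for 4-OHT, 11 for erdafitinib, 0 for the combination against 4-OHT and 13 pooled. Genes called in all in this setting were 857, 2952, 208 and 3537 in the same order. With the GC and length correction 1014 genes were called in the pooled effect. The cause of these shifts was not tested. Replicate numbers were not used to pair libraries in the reported fit. Of 30 same-numbered pairs 13 correlated over 0.1 (-0.83 to 0.77), and 6 of 15 libraries correlated best with their own number. Libraries of a group differed most in GC-rich genes, so these correlations cannot show whether same-numbered libraries were prepared together. The replicate block gave 21 called for TR vehicle and 22 for TR combination against PAR vehicle, and 0 for 4-OHT and for erdafitinib against TR vehicle. Over all alternatives the genes called, of 16210, ranged 3297 to 8466 for TR vehicle against PAR vehicle (5818 as reported), 3063 to 8209 for TR combination against PAR vehicle (5616), 0 to 857 for 4-OHT (0), 0 to 2952 for erdafitinib (15), 33 to 447 for the combination against 4-OHT (0.642% of genes as reported), 0 to 16 for the combination against erdafitinib (0), 45 to 3537 pooled (278) and 0 to 1 for the interaction (0). The median log2 fold change of all genes moved by at most 0.21 and 0.18 in the comparisons with PAR vehicle, and by at most 0.07 within TR. Depth limits CYP51A1 and ABCA1, which had under 3 CPM in every PAR vehicle library.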

Other observations

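Lists of neighbouring branches, kept apart from the 31 genes, gave further values for TR vehicle against PAR vehicle cells. Of 12 tested genes of sterol uptake, storage and traffic, 5 rose and 3 fell, where 19.9% of all genes tested rose and 16% fell, and the median log2 fold change was 0.54 (0.07 over all genes). LRP8, a lipoprotein receptor of the low density family, had 39.7, 34.8 and 39.6 CPM in TR vehicle libraries, against 3.36, 1.11 and 3.20 CPM in PAR vehicle libraries (14.01-fold higher, log2 fold change 3.81, SE 0.26, edgeR adjusted p = 6.82e-08). LIPA, the lysosomal acid lipase, had 267, 200.1 and 206 CPM in TR vehicle libraries, against 30.7, 38.6 and 26.9 CPM in PAR vehicle libraries (2.81, SE 0.17, edgeR adjusted p = 2.19e-08). Neither gene had overlapping groups.

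SOAT1, which esterifies cholesterol for storage, rose by 1.53 (SE 0.17, edgeR adjusted p = 1.03e-05), and SCARB1, a receptor for high density lipoprotein, by 3.29 (SE 0.42, edgeR adjusted p = 3.15e-05). GRAMD1C, which moves sterols from the plasma membrane (-1.71, SE 0.29), VLDLR, another lipoprotein receptor (-1.27, SE 0.41), and NPC2, a lysosomal sterol carrier (-1.16, SE 0.42), fell. In the pooled effect of erdafitinib SOAT1 was the single gene of the 12 to pass, where 1.71% of all genes passed (0.52, SE 0.12, edgeR adjusted p = 0.0429), with 554 CPM in TR combination and 554 CPM in TR erdafitinib cells, against 376 CPM in TR 4-OHT and 398 CPM in TR vehicle cells. Whether the SOAT1 call holds in the alternative settings was not examined.

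The isoprenoid branch uses intermediates of the mevalonate pathway for prenyl groups, dolichol and ubiquinone. Of its 11 tested genes 2 rose and 1 fell, with a median log2 fold change of -0.26 (0.07 over all genes), and these counts are near the shares of all genes that rose (19.9%) and fell (16%). ICMT, which methylates prenylated proteins, rose by 2.04 (SE 0.24, edgeR adjusted p = 1.69e-05), and PDSS2, a subunit of the enzyme that makes the ubiquinone side chain, by 0.75 (SE 0.14). NUS1, a subunit of the dolichol synthesis enzyme, fell to 90.1 CPM in TR vehicle cells, against 143 CPM in PAR vehicle cells (-0.66, SE 0.22, edgeR adjusted p = 0.0286).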
